A study of Mus musculus with 6 samples.

Results

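Cartilage and bone genes were examined in mesenchymal cells of the mouse lung as a set of 10 genes named by symbol, out of 48397 gene symbols in the count files. They are the cartilage genes Lect1, Acan, Hapln1, Matn1, Matn3, Matn4 and S100b and the bone genes Ibsp, Sp7 and Alpl. The set was drawn up with the comparison of 5E1 with IgG already known, so its differences between those groups are given as a description, with no p-values. Where edgeR calls among the 10 are counted or a call is said to end, that describes the fit over all genes and supports nothing about the set. All 10 symbols were found in the files and had at least 1 read.

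Live EGFP+ cells were sorted from the lungs of PdgfraEGFP/+ pups on postnatal day 8, and their mRNA was sequenced in bulk. All pups carried the same reporter genotype, in which EGFP reports Pdgfra, a receptor gene of lung mesenchyme. The sort was for cells with EGFP. Its purity was not tested here, and markers of other cell types, given below, had reads. Their PdgfraEGFP/+ dams had received an intraperitoneal injection at E18.5 of 5E1, an antibody that binds hedgehog ligands (3 libraries), or of control IgG (3 libraries). Whether a library is 1 pup or a pool, and how pups fall into litters, is not in the labels, so a p-value here speaks only of the spread among these libraries, which may be technical.

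Cartilage is built by chondrocytes, which lay down collagen type II fibrils and large aggregates of aggrecan bound to hyaluronan. Bone is built by osteoblasts, which need the transcription factors Runx2 and then Sp7 and which secrete and mineralise a matrix of type I collagen. Hedgehog ligands act in both: Indian hedgehog, made by maturing chondrocytes, paces chondrocyte growth and drives osteoblast formation. In the respiratory tract, cartilage forms the rings and plates of the trachea and large airways, and bone is not a normal part of the lung.

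Libraries held 16958433 to 34318583 reads assigned to genes. Ptch1, the hedgehog receptor gene that the pathway itself induces, was at 405 to 415 CPM (CPM are reads scaled to a common library total, with TMM-adjusted library sizes) in IgG and 82.1 to 102 CPM in 5E1. Fibroblast genes were abundant: 6 markers (Pdgfra, Col1a1, Col1a2, Col3a1, Tcf21 and Dcn) summed to 44300 to 62400 CPM in IgG and 56300 to 102000 CPM in 5E1. Products of mature bone were uneven. Bglap, the osteocalcin gene, had 2 reads in IgG and 4 in 5E1 and Mepe 0 in both, whereas Phex had 12763 and 3711, Ifitm5 157 and 366, and Sost, a gene of osteocytes, 42 and 138. The word bone describes what these genes are known for, not a cell type found here. In the edgeR fit, 16198 genes were tested and 1791 were lower and 1966 higher in 5E1 at an adjusted p under 0.05. Scaled by library size alone, 3274 were lower and 1312 higher, and the median over all tested genes shifted to -0.143 (log2).

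Of the 10 genes, 8 passed the filter on low counts, and Matn1 and Matn3 did not. In the fit 5 of the 8 were lower (Ibsp, Lect1, Acan, S100b and Sp7) and none was higher, where 11.1% of all tested genes were lower and 12.1% higher. In 6 of the 8, Hapln1 being the sixth, all 5E1 libraries lay below all IgG libraries, against 21.4% of tested genes. Since the set was chosen on this contrast, nothing is read from those counts. In bulk RNA fewer cells of a type and less RNA per cell cannot be told apart.

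**Figure D1:**
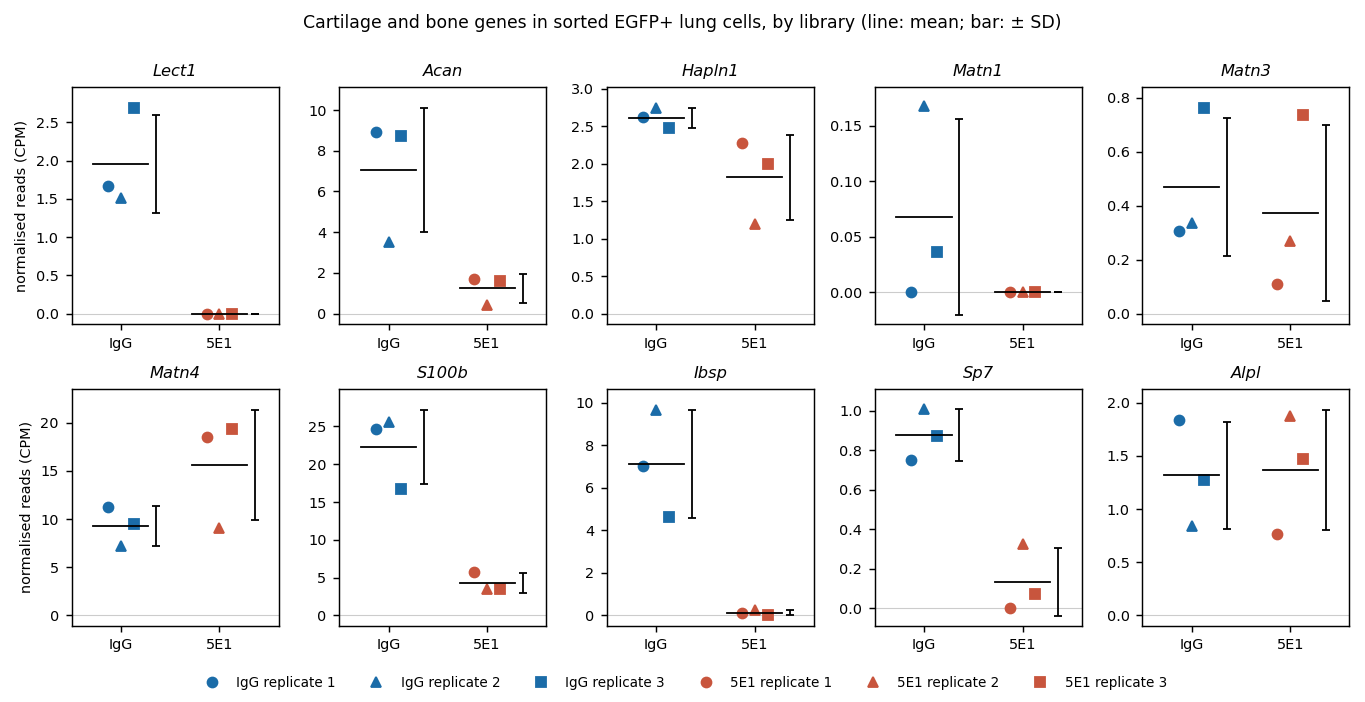
Normalised reads (CPM, linear axis scaled for each gene) of the 10 genes in 3 IgG and 3 5E1 libraries, 1 point per library, with the group mean as a line and ± SD as a bar. Lect1 lies at 0 in all 5E1 libraries and Ibsp at 0.0368 to 0.238 CPM, while the groups of Matn1, Matn3, Matn4 and Alpl overlap.

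Lect1 (now Cnmd, chromosome 14, 79637690 to 79662170, minus strand, mm10) encodes chondromodulin, a membrane glycoprotein of chondrocytes whose released part restrains vessel growth. It had 49, 27 and 74 reads in IgG replicates 1 to 3 and 0, 0 and 0 in 5E1 replicates 1 to 3. Its levels in IgG were 1.67, 1.51 and 2.69 CPM, so all IgG libraries held it at a low level and none of the 5E1 libraries did. Against a floor of 3 reads over the 3 5E1 libraries (0.0379 CPM), the pooled level was at least 52.9-fold lower. That bound takes the IgG count as exact and leaves out its counting error.

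Acan (chromosome 7, 79053483 to 79115099, plus strand) encodes aggrecan, the proteoglycan that gives cartilage its resistance to compression. It had 262, 63 and 240 reads in IgG and 31, 14 and 44 in 5E1, or 8.92, 3.53 and 8.71 CPM against 1.68, 0.417 and 1.62 CPM. The groups did not overlap, and the second replicate was lowest in each group. The means were 7.05 ± 3.06 CPM for IgG and 1.24 ± 0.714 CPM for 5E1 (± SD, n = 3 libraries each), with a log2 fold change of -2.57 (SE 0.54). Pooled over libraries, Acan was 6.72-fold lower (counting interval 5.37 to 8.50). These intervals are exact binomial at 95% and cover counting error only.

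S100b (chromosome 10, 76253853 to 76261159, plus strand) encodes a small calcium-binding protein made by chondrocytes and by glia, including Schwann cells. It was the most abundant of the 10 genes in IgG, with 726, 458 and 460 reads, and had 106, 119 and 94 reads in 5E1. In CPM these were 24.7, 25.6 and 16.7 against 5.76, 3.54 and 3.46, so the lowest IgG library was well above the highest 5E1 library. The log2 fold change was -2.41 (SE 0.24) and the pooled level was 5.46-fold lower (counting interval 4.84 to 6.17).

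Ibsp (chromosome 5, 104299171 to 104311469, plus strand) encodes bone sialoprotein, an acidic matrix protein that nucleates mineral and carries an integrin-binding site. It had 206, 173 and 127 reads in IgG and 2, 8 and 1 in 5E1. The levels were 7.02, 9.69 and 4.61 CPM in IgG and 0.109, 0.238 and 0.0368 CPM in 5E1, with a wide gap between the groups. Its log2 fold change was -5.64 (SE 0.49), and pooled over libraries it was 48.7-fold lower (counting interval 27.0 to 98.2). With any 1 library left out, the log2 fold change lay between -6.63 (without 5E1 replicate 2) and -5.19.

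Sp7 (chromosome 15, 102356606 to 102367182, minus strand) encodes osterix, the zinc finger factor without which osteoblasts do not form. Its reads numbered 22, 18 and 24 in IgG and 0, 11 and 2 in 5E1, or 0.749, 1.01 and 0.871 CPM against 0, 0.327 and 0.0736 CPM. The groups did not overlap, but 11 of the 13 reads in 5E1 came from replicate 2. Its log2 fold change was -2.47 (SE 0.75), and the pooled level was 5.21-fold lower (counting interval 2.84 to 10.3). The log2 fold change ran from -4.18 to -2.05 with 1 library left out, -4.18 being the value without 5E1 replicate 2, and that was the only one of these 6 fits in which Sp7 stayed past the threshold.

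The sequences just upstream of the start sites are shown for the 4 of the 10 genes with the largest drop in reads from IgG to 5E1, so that their promoters can be read side by side. Each is the 250 bases before a RefSeq start site in GRCm38.p6, written 5′ to 3′ on the strand of the gene, and that start need not be the gene start given above from GENCODE. Capitals mark matches on either strand to 6 motifs. These are the TATA motif TATAAA, the GC box GGGCGG, the SOX-like motifs ACAAAG and also ACAATG, the RUNX-like motif ACCACA and the GLI-like motif GACCACCCA.
Ibsp, chr5:104299037-104299286, plus strand: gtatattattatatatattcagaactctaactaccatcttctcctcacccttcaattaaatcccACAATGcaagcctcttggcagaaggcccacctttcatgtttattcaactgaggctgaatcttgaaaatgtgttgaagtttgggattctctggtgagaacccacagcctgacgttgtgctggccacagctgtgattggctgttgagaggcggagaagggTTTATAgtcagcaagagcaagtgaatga
Lect1, chr14:79662184-79662433, minus strand: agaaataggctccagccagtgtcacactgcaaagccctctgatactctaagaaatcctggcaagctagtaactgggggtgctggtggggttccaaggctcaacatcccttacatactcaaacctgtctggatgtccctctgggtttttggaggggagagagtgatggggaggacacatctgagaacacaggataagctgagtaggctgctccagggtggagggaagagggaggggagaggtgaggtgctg
Acan, chr7:79052976-79053225, plus strand: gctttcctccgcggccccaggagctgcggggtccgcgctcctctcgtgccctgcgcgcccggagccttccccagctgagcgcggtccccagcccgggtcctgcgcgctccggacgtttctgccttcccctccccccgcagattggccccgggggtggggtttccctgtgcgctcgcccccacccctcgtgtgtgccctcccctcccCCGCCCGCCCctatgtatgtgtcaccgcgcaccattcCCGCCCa
S100b, chr10:76253586-76253835, plus strand: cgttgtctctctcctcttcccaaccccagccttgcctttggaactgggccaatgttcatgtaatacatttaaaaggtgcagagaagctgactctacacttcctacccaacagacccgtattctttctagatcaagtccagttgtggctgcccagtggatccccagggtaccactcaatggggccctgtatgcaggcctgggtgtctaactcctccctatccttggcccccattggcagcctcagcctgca

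The Ibsp window held the TATA motif in reverse orientation, beginning 28 bases before the start, and 1 ACAATG beginning 186 bases before it. In the Acan window there were 3 GC boxes in reverse orientation, beginning 44, 40 and 7 bases before the start, of which the first and second overlap. The windows of Lect1 and S100b held none of the 6 motifs. Among 32851 windows of the same length, TATAAA was found in 12.4%, GGGCGG in 32.7%, ACAATG in 10.7%, ACAAAG in 16.5%, ACCACA in 14.0% and GACCACCCA in 0.225%. Of the 10 genes, 9 had a window (11 in all), Sp7 being the exception. ACCACA was in the windows of Hapln1 and Matn1, and GACCACCCA in none. These are matches of letters, not binding sites.

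Hapln1, Matn3, Matn4, Matn1 and Alpl did not pass as lower. Hapln1 (chromosome 13, 89539796 to 89611652, plus strand) encodes the link protein that fastens aggrecan to hyaluronan. It had 77, 49 and 68 reads in IgG and 42, 40 and 54 in 5E1, or 2.62, 2.74 and 2.47 CPM against 2.28, 1.19 and 1.99 CPM. The groups did not overlap but lay close, and the log2 fold change was -0.54 (SE 0.31), with a pooled level 1.51-fold lower (counting interval 1.21 to 1.89).

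The matrilins are adaptor proteins that join collagen fibrils and proteoglycans. Matn1 (chromosome 4, 130944385 to 130955475, plus strand), a gene of mature cartilage, had 0, 3 and 1 reads in IgG and 0 in every 5E1 library. A difference was not detectable at this depth. Matn3 (chromosome 12, 8947929 to 8972028, plus strand), a gene of growth plate cartilage, had 9, 6 and 21 reads in IgG and 2, 9 and 20 in 5E1. The groups of Matn3 overlapped, and the pooled IgG level was 1.23 times that of 5E1 (counting interval 0.739 to 2.06).

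Matn4 (chromosome 2, 164389393 to 164405160, minus strand), the matrilin expressed most widely outside cartilage, went the other way. It had 332, 128 and 261 reads in IgG and 340, 305 and 527 in 5E1, or 11.3, 7.17 and 9.47 CPM in IgG and 9.08 CPM in replicate 2 and 19.4 CPM in replicate 3 of 5E1. Replicates 1 and 3 of 5E1 lay above all IgG libraries, whereas 5E1 replicate 2 lay among them. The means were 9.32 ± 2.07 and 15.7 ± 5.71 CPM. The log2 fold change was 0.73 (SE 0.29), and without 5E1 replicate 2 it was 1.01 and passed the threshold. In GENCODE M21, 149 exonic bases of Matn4 overlap Rbpjl on the opposite strand, and although the library kit keeps strand, the strand setting of the counting was not given. None of the other 9 genes shared exonic bases with another gene.

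Alpl (chromosome 4, 137741733 to 137796384, minus strand) encodes tissue-nonspecific alkaline phosphatase, the enzyme that frees phosphate for mineral and that osteoblasts share with other cells, among them alveolar type 2 cells. Its reads were 54, 15 and 35 in IgG and 14, 63 and 40 in 5E1. The groups overlapped fully, at 1.84, 0.840 and 1.27 CPM against 0.761, 1.88 and 1.47 CPM. The log2 fold change was 0.06 (SE 0.43), and its sign turned without IgG replicate 2 (-0.16) or 5E1 replicate 2 (-0.23) and with library size alone (-0.08). The pooled ratio of IgG to 5E1 was 0.941, with a counting interval of 0.716 to 1.24.

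Levels were compared between genes per kilobase of annotated exon. In IgG, S100b stood highest at 15.1 ± 3.32 CPM per kb, followed by Ibsp (3.44 ± 1.23), Matn4 (1.80 ± 0.401), Lect1 (1.06 ± 0.346) and Acan (0.945 ± 0.409). Lower still were Hapln1 (0.443 ± 0.0234), Alpl (0.326 ± 0.124), Sp7 (0.258 ± 0.0381), Matn3 (0.155 ± 0.0846) and Matn1 (0.0340 ± 0.0442). The means of Lect1 and Acan, of Hapln1 and Alpl, and of Alpl and Sp7 lay closer together than the SD of the more variable gene of each pair. In 5E1 the order of the leading genes changed, with Matn4 (3.03 ± 1.1 CPM per kb) beside S100b (2.87 ± 0.879), Alpl (0.340 ± 0.140) beside Hapln1 (0.308 ± 0.0957), and Ibsp at 0.0618 ± 0.0493.

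Relatives of these genes in the same families did not all share their direction. Vcan, which encodes versican, the lectican of soft connective tissue, was far above Acan, at 44.0 ± 1.74 CPM per kb in IgG and 24.9 ± 4.78 in 5E1. It fell by 0.82 on the log2 scale (SE 0.13, edgeR adjusted p 0.00176). The neural lecticans Ncan and Bcan were near the limit of detection, with 11 and 26 reads in IgG and 6 and 50 in 5E1. Matn2, the matrilin of many soft tissues, rose from 76.0 ± 15.5 to 162 ± 25.2 CPM, a log2 difference of 1.09 (SE 0.16, edgeR adjusted p 0.00173).

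Hapln3, a link protein gene of vessel walls and other tissues, had 74 reads in IgG and 56 in 5E1 and did not pass (edgeR adjusted p 0.703). Ibsp lies in a cluster of genes for acidic phosphoproteins of bone and tooth on chromosome 5, with Mepe 13.9 kb, Dmp1 85.1 kb, Dspp 119 kb and Spp1 124 kb away. Of these neighbours, Spp1 and Dspp were tested and neither passed as lower, while Mepe and Dmp1 had too few reads to be tested. Spp1, the osteopontin gene, had 1.06, 0.840 and 1.05 CPM in IgG and 2.61, 2.83 and 0.773 CPM in 5E1 (edgeR adjusted p 0.128). Without 5E1 replicate 3, Spp1 passed as higher with an adjusted p of 0.023. Dmp1 had 9 reads in IgG and 6 in 5E1, and Dspp had 17 and 106, of which 87 were in 5E1 replicate 2. Tnmd, the tenomodulin gene and the closest relative of Lect1, had 2 and 6 reads.

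**Figure D2:**
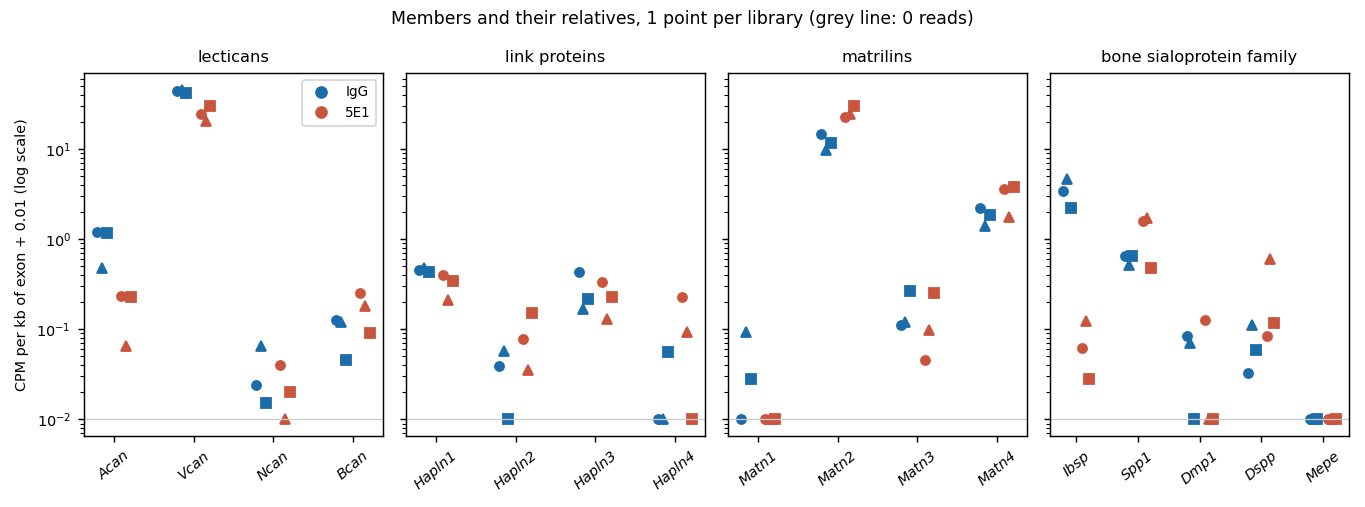
CPM per kb of exon plus 0.01 on a log axis for 4 families, 1 point per library, blue for IgG and red for 5E1, with circles, triangles and squares for replicates 1 to 3 and the grey line marking 0 reads. Ibsp and Acan lie lower in 5E1 with no overlap, Matn2 lies higher, and Vcan is the most abundant lectican in both groups.

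Genes of the cartilage program outside the set were taken from a list of 57 symbols, of which 56 were in the files and 42 were tested. This list and the bone list below leave out the 10 genes and were chosen with earlier results of these data known. Their shares, medians and adjusted p are thus a description and no independent look at these programs. In 5E1 5 were lower (11.9%, against 11.1% of all tested genes) and 10 higher (23.8%, against 12.1%), with a median log2 fold change of 0.04 beside 0.00 over all genes. The share of lower calls was near that of all genes in this fit, but not in each alternative. With no low-count filter 9 of 55 were lower (16.4%, against 7.6% of all genes), and without 5E1 replicate 3 7 of 42 were (16.7%, against 6.46%). With the filter at 5 CPM 3 of 24 were lower (12.5%, against 13.5%).

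Among the matrix genes of cartilage, 2 of 17 tested fell (11.8%, against 11.1% of all tested genes) and 4 rose (23.5%, against 12.1%). Col9a1, which encodes a chain of the collagen that coats type II fibrils, had 131, 59 and 299 reads in IgG and 3, 5 and 16 in 5E1. Its levels were 4.46, 3.3 and 10.9 CPM against 0.163, 0.149 and 0.589 CPM, a large gap with a wide spread among IgG libraries (log2 fold change -4.34, SE 0.65, edgeR adjusted p 0.00244). It was -3.66 without IgG replicate 3 and -5.30 without 5E1 replicate 3, and passed in each of the 6 fits with 1 library left out. Col9a3, another chain of that collagen, fell by 1.71 (SE 0.36, edgeR adjusted p 0.00677). The chain gene Col9a2 overlapped between groups, at 13.2, 12.9 and 16.7 CPM in IgG and 12.9, 7.38 and 14.2 CPM in 5E1. It did not pass (log2 fold change -0.32, SE 0.23, edgeR adjusted p 0.345).

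Col2a1, the gene of the main cartilage collagen, had 51.7, 49.4 and 70.6 CPM in IgG and 38.9, 7.17 and 29.9 CPM in 5E1. The groups did not overlap, yet its log2 fold change of -1.20 (SE 0.64) did not pass (edgeR adjusted p 0.257). It passed without 5E1 replicate 2 (-0.74, edgeR adjusted p 0.0223) and with limma-voom (-1.65, adjusted p 0.0272). Comp, a cartilage matrix adaptor gene, had 25 reads in IgG, 21 of them in replicate 3, and 4 in 5E1, and Col10a1, which marks hypertrophic chondrocytes, had 26 and 15. Neither was tested.

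The matrix genes that rose were Cilp, Prg4, Matn2 and Prelp. Cilp, which encodes a matrix protein of cartilage and of fibrotic soft tissue, rose from 13.1 ± 4.14 to 92.9 ± 17.6 CPM, a log2 difference of 2.81 (SE 0.23, edgeR adjusted p 0.000306). Prelp, a leucine-rich repeat proteoglycan gene of many connective tissues, rose from 167 ± 16.7 to 273 ± 4.53 CPM. Prg4, the lubricin gene of joint surfaces, had 37 reads in IgG and 121 in 5E1 (log2 fold change 1.61, edgeR adjusted p 0.0187). That call ended without IgG replicate 2 (0.0648) or 3 (0.0616) or 5E1 replicate 2 (0.0564).

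Of 12 tested transcription regulators of cartilage, 1 fell (8.33%, against 11.1% of all tested genes) and 2 rose (16.7%, against 12.1%). Sox9, the master factor of chondrocytes and also a gene of the growing airway epithelium, was higher in 5E1, with 14.6, 8.79 and 15.4 CPM in IgG and 19.7, 21.5 and 23.2 CPM in 5E1. On the log2 scale that is 0.72 (SE 0.19), with an edgeR adjusted p of 0.0203, or 0.0767 without 5E1 replicate 3. Its partners Sox5 and Sox6 did not pass (log2 fold changes 0.09 and 0.73, edgeR adjusted p 0.617 and 0.135). Foxc1 rose (1.25, edgeR adjusted p 0.00599), and Mef2c, a factor of chondrocyte hypertrophy and of muscle and endothelium, fell by 0.48 (edgeR adjusted p 0.0128, and 0.0517 without IgG replicate 1).

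Among 13 tested signals of the growth plate, 2 were lower (15.4%, against 11.1% of all tested genes) and 4 higher (30.8%, against 12.1%). Pth1r, the receptor gene for parathyroid hormone-related protein, which acts in a loop with Indian hedgehog, fell from 51.0, 60.0 and 59.1 CPM in IgG to 29.0, 26.8 and 30.7 CPM in 5E1. On the log2 scale that is -0.98 (SE 0.10), with an edgeR adjusted p of 0.000135. Grem1, a BMP antagonist gene, fell by 0.56, while Npr3 (1.26), Gdf10 (0.70), Bmpr1b (1.31) and Npr2 (0.34) rose, the first being a clearance receptor gene for natriuretic peptides. The call of Bmpr1b ended without IgG replicate 1 (edgeR adjusted p 0.0535). That of Npr2 ended without IgG replicate 1 (0.112) or 2 (0.100), without 5E1 replicate 2 (0.0557) or 3 (0.0972) and with library size alone (0.157). Ihh itself, the ligand gene of the growth plate, had 7, 2 and 18 reads in IgG and 0, 3 and 2 in 5E1 and was not tested.

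The bone list held 45 further genes, of which 31 were tested. There 5 were lower (16.1%, against 11.1% of all tested genes) and 6 higher (19.4%, against 12.1%), with a median log2 fold change of 0.26 beside 0.00 over all genes. With DESeq2 10 of 31 were higher (32.3%, against 13.9% of all genes), and with no low-count filter 10 of 44 were (22.7%, against 8.38%). Without 5E1 replicate 3 5 of 31 were lower (16.1%, against 6.46%), and with library size alone 6 of 31 were (19.4%, against 20.2%). Calls fell on both sides.

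Of 13 tested bone regulators, 2 fell (15.4%, against 11.1% of all tested genes) and 1 rose (7.69%, against 12.1%). Runx2, the factor upstream of Sp7 in osteoblast formation, was among those that fell. It had 120, 93 and 128 reads in IgG and 35, 70 and 52 in 5E1, or 4.09, 5.21 and 4.65 CPM against 1.90, 2.08 and 1.91 CPM. The groups stood well apart, with a log2 fold change of -1.23 (SE 0.23, edgeR adjusted p 0.00413), and the call held in all 6 fits with 1 library left out. Twist1, a factor that restrains Runx2, fell by 2.05 (SE 0.42, edgeR adjusted p 0.00983). Atf4 rose by a log2 fold change of 0.33 (edgeR adjusted p 0.0369), a call that ended without any library other than IgG replicate 3, at 0.0536 to 0.142, and with library size alone (0.204). Dlx5, another osteoblast factor gene, had 21 reads in IgG and 35 in 5E1 (edgeR adjusted p 0.510).

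Among 18 tested genes of bone matrix and mineral handling, 3 fell (16.7%, against 11.1% of all tested genes) and 5 rose (27.8%, against 12.1%). The 3 were Phex, an endopeptidase gene of phosphate balance, Enpp1, whose product makes the mineral inhibitor pyrophosphate, and Cdh11, the cadherin of osteoblasts and fibroblasts. Phex fell from 168 ± 33.8 to 47.3 ± 10.1 CPM (-1.83 in log2, SE 0.19) and Enpp1 from 220 ± 43.4 to 83.0 ± 4.93 CPM (-1.41, SE 0.13), with edgeR adjusted p of 0.000474 and 0.000124. Cdh11 fell by 0.60 (edgeR adjusted p 0.00354). Mgp, an inhibitor of cartilage and vessel calcification, rose by a log2 fold change of 1.46, Smpd3, a sphingomyelinase gene needed for mineralisation, by 2.01, and Ifitm5, an osteoblast membrane protein gene, by 1.18, with edgeR adjusted p of 0.000117, 0.00377 and 0.00599.

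**Figure D3:**
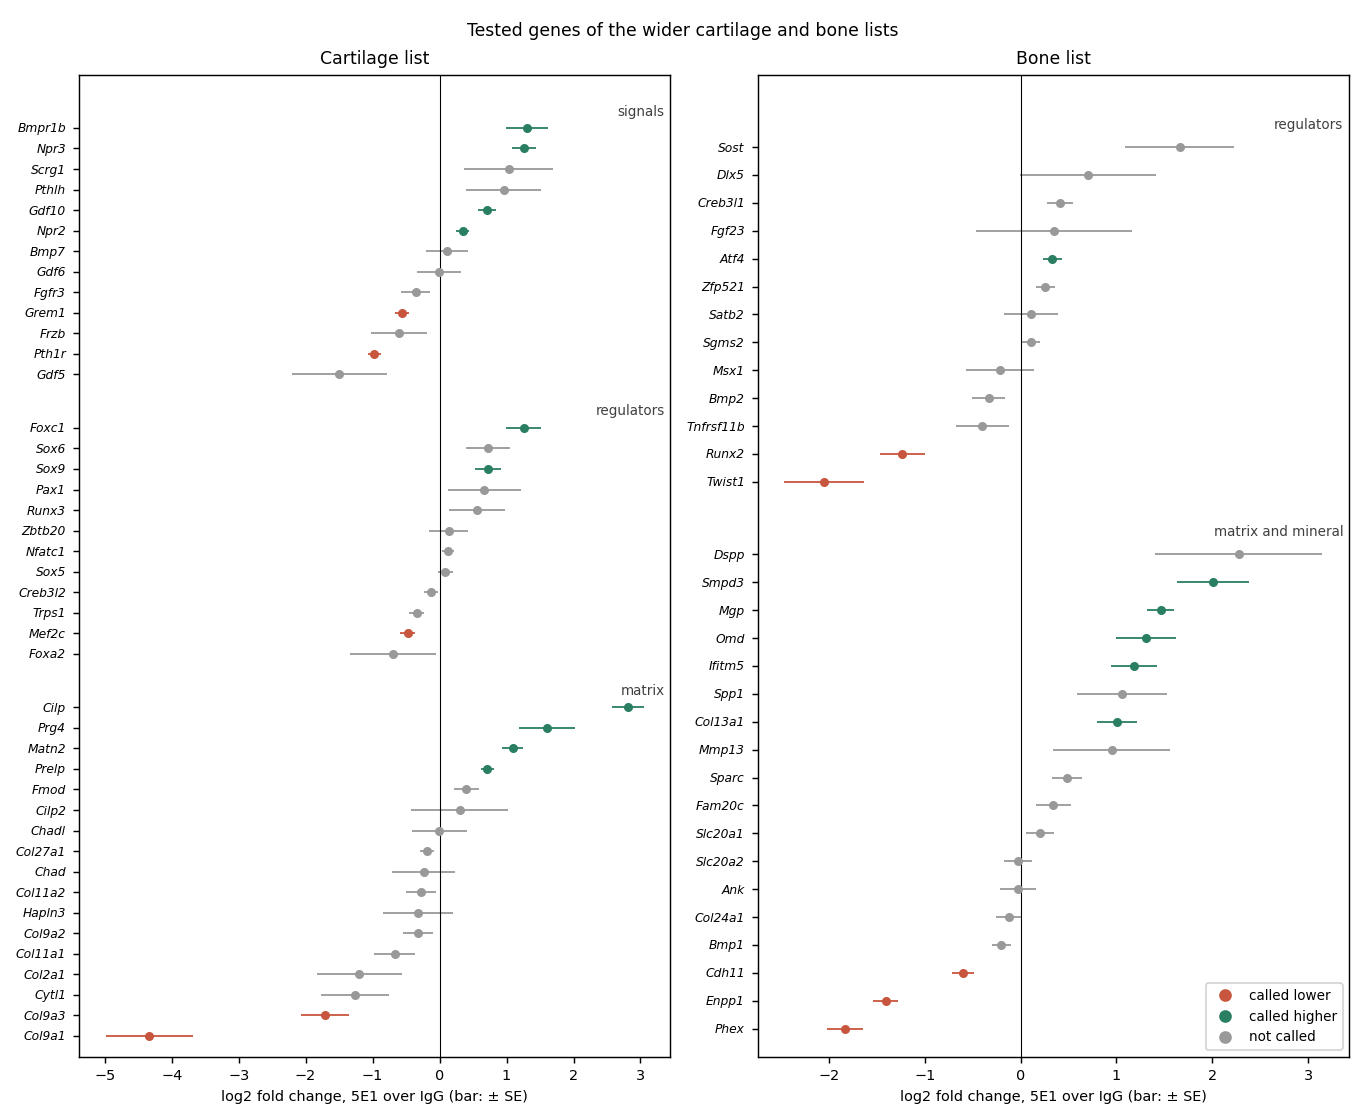
Log2 fold change of 5E1 over IgG with its standard error for the 42 tested genes of the cartilage list (left) and the 31 of the bone list (right), coloured by the edgeR call at an adjusted p under 0.05. Each list has calls on both sides of 0, from Col9a1 at -4.34 to Cilp at 2.81.

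The 3 IgG libraries did not rank alike for the 10 genes. Their highest level over their lowest was 1.11 for Hapln1, 1.35 for Sp7, 1.54 for S100b, 1.58 for Matn4, 1.78 for Lect1, 2.10 for Ibsp, 2.19 for Alpl, 2.49 for Matn3 and 2.53 for Acan. IgG replicate 3 was highest for Lect1 and Matn3, as it was for Col2a1, Col9a1, Col9a3 and Ihh, and lowest for Ibsp, S100b and Hapln1. The IgG library with most Lect1 and cartilage collagen RNA was therefore the one with least Ibsp.

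In the 5E1 libraries, replicate 2 was lowest for Acan, Hapln1 and Matn4, and for Col2a1, and highest for Ibsp, Sp7 and Alpl. That library also had the highest sums of markers of alveolar type 2 cells (531 CPM, against 229 to 310 in the other 5), of endothelium (219 CPM, against 87.6 to 118) and of mesothelium (121 CPM, against 13.2 to 55.5). Their part in these values was not tested. Without that library, 5 of the 9 tested genes of the set were lower, against 10.3% of all 16564 tested. As the set was chosen on this contrast, nothing is read from that count.

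Because S100b also marks Schwann cells, it was set beside 7 of their markers. All 7 had reads, and their summed level was 3.02 to 6.03 CPM in IgG and 6.08 to 13.2 CPM in 5E1, ranges that nearly touch. The sum is low and Mbp, a myelin gene, is its most abundant member. Of the 3 tested, none was lower and Mbp was higher (log2 fold change 1.09, edgeR adjusted p 0.0373). Over all tested genes, 11.1% were lower and 12.1% higher. The call of Mbp ended without any library but 5E1 replicate 3 (0.0737 to 0.112), with limma-voom (0.0786) and with library size alone (0.055). Sox10, which defines the lineage, had 2 reads in IgG and 9 in 5E1. The part of glia in the level of S100b was not tested.

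Alpl was set beside 7 markers of alveolar type 2 cells, which summed to 229 to 257 CPM in IgG and 236 to 531 CPM in 5E1. Both were highest in 5E1 replicate 2 among the 5E1 libraries. Within IgG their order was reversed. Alpl was highest in replicate 1 and lowest in replicate 2, and the markers were lowest in replicate 1 (229 CPM) and highest in replicate 2 (257 CPM). Of the 7, 1 was higher and none lower, where 12.1% of all tested genes were higher and 11.1% lower. The 1 was Abca3, a lipid transporter gene (log2 fold change 0.56, edgeR adjusted p 0.0137). Its adjusted p was 0.0566 without IgG replicate 2 and 0.0532 with library size alone. The part of those cells in the level of Alpl was not tested.

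**Figure D4:**
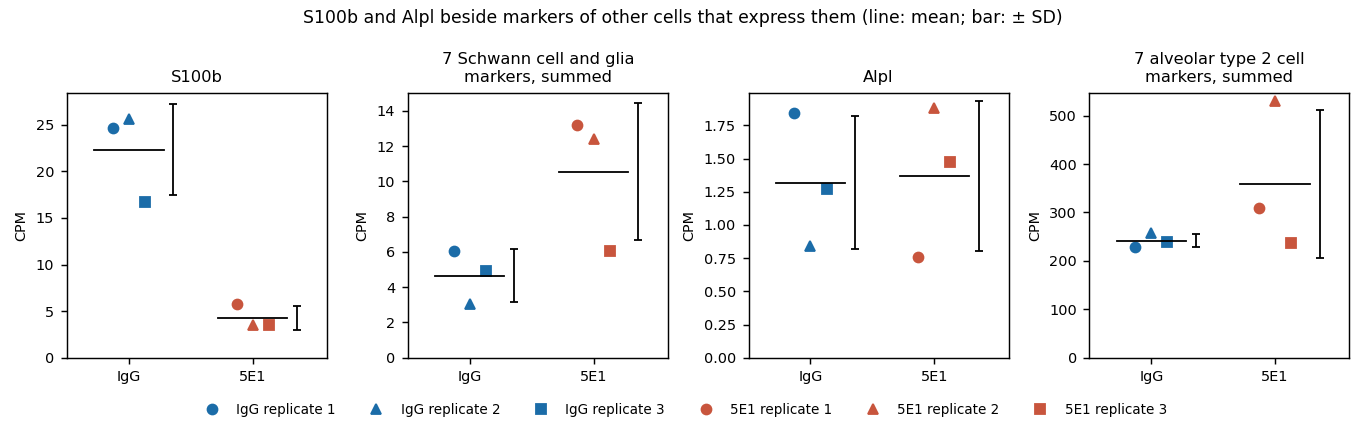
CPM per library of S100b, of 7 Schwann cell and glia markers summed, of Alpl and of 7 alveolar type 2 cell markers summed, with the group mean as a line and ± SD as a bar, axes from 0. S100b is lower in 5E1, and the glial sum is at 3.02 to 6.03 CPM in IgG and 6.08 to 13.2 CPM in 5E1. Alpl and the type 2 sum are both highest in 5E1 replicate 2, but Alpl is nearly as high in IgG replicate 1, where the type 2 sum is lowest.

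Markers of other tissues near cartilage and bone were measured the same way, where 11.1% of all tested genes were lower and 12.1% higher. In the list of tendon and perichondrium, 5 genes summed to 81.3 to 97.1 CPM in IgG and 113 to 163 CPM in 5E1, with 1 of 4 tested higher and none lower. The 1 was Thbs4, a thrombospondin gene of tendon, which rose from 3.99 ± 1.91 to 30.9 ± 4.86 CPM, a log2 difference of 2.92 (edgeR adjusted p 0.000601). Scx, the defining factor of tendon, was at 13.4 ± 2.37 and 11.1 ± 2.39 CPM (edgeR adjusted p 0.347). In the osteoclast list of 6, none of 3 tested passed, Calcr was at 0 in every library, and the sum was 54.3 to 84.5 CPM in IgG and 91.9 to 113 CPM in 5E1, carried by Ctsk. The 8 skeletal muscle markers summed to 4.68 to 5.94 CPM in IgG and 5.92 to 7.34 CPM in 5E1, with Myod1 at 0 throughout. Of the 4 tested, 1 was higher, the creatine kinase gene Ckm, with 9 reads in IgG and 63 in 5E1 (log2 fold change 2.59, edgeR adjusted p 0.0202).

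Markers of blood cells were higher in 5E1, where 12.1% of all tested genes were higher and 11.1% lower. The 7 neutrophil markers summed to 12.2 to 15.2 CPM in IgG and 113 to 191 CPM in 5E1, and all 6 tested were higher, S100a9, a calprotectin subunit gene, being the most abundant (6.21 ± 0.790 and 74.3 ± 16.3 CPM). Ly6g, which defines mouse neutrophils, had 1 read in IgG and 22 in 5E1 and was not tested. The 5 leukocyte markers summed to 30.5 to 35.0 CPM in IgG and 62 to 89 CPM in 5E1, and all 5 were higher, among them Ptprc, the CD45 gene (log2 fold change 1.05, edgeR adjusted p 0.00442). Of 5 tested cardiomyocyte markers 2 were higher, and 1 of 5 was higher for mesothelium and for endothelium, with none lower on these lists. The part of such cells in the levels of cartilage and bone genes was not tested.

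For Lect1 and Ibsp, the genes most alike in pattern over the 6 libraries were found among the 16197 other tested genes, by the root mean square difference of centred log2(CPM + 0.5). For Lect1 they were Pif1 (0.203), Sapcd2 (0.222), Phactr3 (0.228), Cnr1 (0.231) and Ptch1 (0.238). The added 0.5 holds down the apparent size of the difference in a gene as low as Lect1, so its nearest genes depend on that value. Pooled over libraries, they were 4.56-fold (Ptch1) to 24.2-fold (Phactr3) lower, and Lect1 at least 52.9-fold. Other added values were not tried. For Ibsp they were Adamdec1 (0.309), Col6a4 (0.323), Tmem163 (0.414), Lama1 (0.475) and St6gal2 (0.505). None of these 10 genes is on the cartilage or bone lists. Each was itself called lower in 5E1, which follows from picking them by likeness to genes that fell.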

How the data were processed

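The authors deposited raw counts of reads, with genes given by symbol, in a separate file for each library. The files end with HTSeq summary lines, which were left out. The submitters' processing notes name the build mm10 and, in no stated order, HTSeq 0.6.0, STAR 2.5.0c, DESeq2 1.10.0, Picard 1.126, R 3.5.1 and bedtools 2.17.0. Libraries were made with a stranded mRNA kit, per the labels' protocols. Which annotation, strand setting and treatment of duplicates applied was not given. Groups and replicate numbers come from the titles. Sample numbers in the titles run through IgG first and then 5E1, so any order of handling and antibody cannot be told apart.

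Counts of all genes were filtered with filterByExpr (minimum count 10, minimum total 15), scaled by TMM and tested by quasi-likelihood in edgeR 4.0.16 under R 4.3.3 (robust, group as the only term, two-sided, Benjamini-Hochberg over 16198 genes). Log2 fold changes use a prior count of 0.125. The SE was taken as the unshrunken log2 coefficient divided by the root of F. The script was tested on simulated data. Positions, exon lengths and overlaps come from GENCODE M21 (GRCm38), and start sites from RefSeq.

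As alternatives, each library was left out, a replicate block was added, robust estimation was dropped, TMM was replaced by RLE size factors or by library size alone, edgeR by limma-voom (limma 3.58.1) or DESeq2 1.42.0, and the filter by 1 read in all or by 5 CPM in 3 libraries. The 10 genes, the cartilage and bone lists and the marker lists were chosen with earlier results of these data known. From the Schwann cell and glia list, 1 marker is not reported here and was left out of the sum. Besides the 10, the text names up to 6 called genes with the smallest p of each sublist, set genes of cartilage and bone, relatives in the same families, leading markers of other cells and the 5 genes most like Lect1 and Ibsp.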

Additional observations from a re-analysis of the deposited data

How the results depend on the processing

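Over all genes, 3757 were called, and 2305 to 3704 with 1 library left out. Of the 10 genes, 5 of the 8 tested were called lower as reported, against 11.1% of all tested genes. With 1 library left out 4 or 5 of 8 or 9 were, against 6.44% to 10.9% of all genes, Sp7 being the one lost. With the filter at 5 CPM S100b and Matn4 alone could be tested, and 1 of these 2 was lower (S100b), against 13.5% of all genes. As the set was chosen on this contrast, nothing is read from these counts. On the cartilage list 5 of 42 were lower as reported, 9 of 55 with no low-count filter and 3 of 24 with the filter at 5 CPM, beside the shares given above. With 1 library left out 4 to 7 of 42 or 43 were lower, against 6.44% to 10.9% of all genes. On the bone list 6 of 31 were higher as reported, 10 of 31 by DESeq2 and 10 of 44 where low counts were not filtered, beside the shares given above. With 1 library left out 4 to 7 of 31 were higher, against 7.26% to 11.2% of all genes. The log2 fold change of Alpl was -0.0801 with library size alone and ran from -0.23 to 0.38 with 1 library left out (-0.16 without IgG replicate 2), and that of Sox5 was -0.0564 with library size alone. Matn4 passed as higher without 5E1 replicate 2, by DESeq2 and where low counts were not filtered. Over 45 named and tested genes and 14 alternatives, 566 of 612 values kept their direction and side of the threshold. Causes of these changes were not tested.

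Over all tested genes, same-numbered IgG and 5E1 libraries did not deviate together (r of -0.144, -0.00758 and -0.0708). With 3 libraries in each group, that cannot show whether the numbers stand for a shared litter or batch, and single genes may differ. With the replicate block 3220 genes were called, and 5 of the 8 tested genes of the set were lower, against 9.26% of all genes. In that edgeR fit Matn4 passed as higher, and the calls of Atf4 (adjusted p 0.0591) and Mbp (0.0753) ended. Depth limits Matn1, Matn3 and Sp7, with at most 24 reads in a library.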

Other observations

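Further low genes had reads in all IgG libraries and none in 5E1. They were picked after their values were seen and were not tested. How many genes over the whole table share this pattern was not counted, so it is not shown to be particular to these genes. Among tested genes, 21.4% lay lower in 5E1 with no overlap. Ucma, which encodes a small secreted protein of cartilage, had 6, 1 and 7 reads in IgG and 0 in 5E1. 3110079O15Rik, a small proteoglycan gene of cartilage, had 4, 5 and 6 reads in IgG and 0 in 5E1. Sp6, a zinc finger gene of the family of Sp7 with a known role in teeth and limbs, had 9, 8 and 15 reads in IgG and 0 in 5E1. Against a floor of 3 reads over the 5E1 libraries, the pooled levels were at least 4.94-fold (Ucma), 5.29-fold (3110079O15Rik) and 11.3-fold (Sp6) lower. These bounds take the small IgG counts as exact and leave out their counting error.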
